A study of Homo sapiens with 6 samples.

Results

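Replication-dependent histone genes encode the bulk of the histones that package newly copied DNA, the linker histone H1 and the core histones H2A, H2B, H3 and H4. They were taken as every row of the count table named H1-1 to H1-5 or with a symbol that begins with H2AC, H2BC, H3C or H4C and a digit, which gave 40 genes of 11957 rows. There were 4 genes for H1, 11 for H2A, 12 for H2B, 6 for H3 and 7 for H4. The RNA came from OVCA433 cells, a long-established line of human ovarian carcinoma, in 3 libraries with the genotype label U2AF2 SI and 3 with the label U2AF2 SINC. The labels expand neither abbreviation and name no other agent, dose or time, so the groups are called by their labels and every difference is given as libraries labelled SI minus libraries labelled SINC. By its title, the series is about gene expression when U2AF2 is deficient, the large subunit of the factor that recognises the 3′ splice site.

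Most messenger RNAs end in a poly(A) tail, whereas RNA from these genes normally ends just after a short stem-loop and has no tail. The stem-loop is bound by SLBP, and the U7 small nuclear ribonucleoprotein directs the cut behind it. The genes lie in clusters, have no introns as a rule, and are transcribed chiefly in S phase, when DNA is copied. Some of them also give longer RNA that is polyadenylated at a site beyond the stem-loop. Here messenger RNA was captured on oligo(dT) beads, which hold RNA by its tail, so the values are not a measure of all histone RNA. Whether the histone RNA that was counted had a tail was not measured. In a bulk sample, fewer cells in S phase and less histone RNA per cell cannot be told apart.

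The stem-loop is shown first, because it is the element that sets these RNAs apart from others in a poly(A) library. It was found after the stop codon in the annotated transcripts of 23 of the 40 genes, 22 to 67 nt behind the stop codon, by a search for the histone stem-loop consensus of 16 nt with a paired stem of 6 bases. These 23 genes carried 5 different stem-loops, and 1 gene is given here for each, with the stem-loop in capitals and 5 bases on either side in lower case, as in GENCODE release 29.
H2AC18: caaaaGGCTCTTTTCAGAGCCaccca
H4C11: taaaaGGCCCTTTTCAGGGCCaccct
H4C15: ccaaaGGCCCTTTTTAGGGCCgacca
H2BC5: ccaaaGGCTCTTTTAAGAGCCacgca
H2AC11: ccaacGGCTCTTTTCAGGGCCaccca
The form of H2AC18 was shared by 15 genes of the H2A, H2B and H3 classes. That of H4C11 was found in 3 H4 genes, that of H4C15 in 2 H4 genes, that of H2BC5 in 2 H2B genes and that of H2AC11 in 1 gene. In 16 of the 23 genes an annotated coding transcript ran 100 nt or more past the stem-loop, by up to 1917 nt in H2BC26, and in the other 7 it ended sooner. The remaining 17 genes had no stem-loop within their annotated coding transcripts, and 14 of these 17 had transcripts annotated to end within 15 nt of the stop codon.

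Promoters were read from RefSeq (GRCh38.p14) for 38 of the 40 genes, as 250 bases before and 50 after the start. The genome build of the count table is not given in the sources used here. Of the 38 promoters, 28 held TATAAA (73.7%, against 12% of 27305 promoters in the same table) and 32 held CCAAT (84.2%, against 35.7%), on either strand. The octamer ATTTGCAT, known from H2B promoters, was in 8 of 12 H2B and 6 of 10 H2A promoters, against 1.8% of all promoters. Where an H2A and an H2B gene start in opposite directions from a shared region, the same motif can count for both. CCAAT was in 0 of 6 H4 promoters. The 3 promoters below, with these motifs in capitals on either strand, are of H2BC12, the gene with the most counts, of H2AC17, whose region also starts H2BC17 in the opposite direction, and of H4C11, the member with the lowest fold change.
H2BC12 (chr6:27146809-27147108, strand -): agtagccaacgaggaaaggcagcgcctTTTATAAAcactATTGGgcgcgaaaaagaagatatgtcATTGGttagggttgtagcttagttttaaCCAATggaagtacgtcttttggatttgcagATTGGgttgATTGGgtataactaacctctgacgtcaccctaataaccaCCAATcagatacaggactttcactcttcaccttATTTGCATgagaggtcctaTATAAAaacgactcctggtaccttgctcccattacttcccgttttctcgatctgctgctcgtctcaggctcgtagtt
H2AC17 (chr6:27893136-27893435, strand -): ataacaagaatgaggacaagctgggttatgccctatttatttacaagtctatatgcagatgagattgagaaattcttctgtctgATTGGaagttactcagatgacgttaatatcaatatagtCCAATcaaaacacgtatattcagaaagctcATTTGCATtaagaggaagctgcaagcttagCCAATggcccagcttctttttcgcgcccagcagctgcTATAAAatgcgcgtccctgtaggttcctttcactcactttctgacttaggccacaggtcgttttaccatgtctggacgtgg
H4C11 (chr6:27823842-27824141, strand +): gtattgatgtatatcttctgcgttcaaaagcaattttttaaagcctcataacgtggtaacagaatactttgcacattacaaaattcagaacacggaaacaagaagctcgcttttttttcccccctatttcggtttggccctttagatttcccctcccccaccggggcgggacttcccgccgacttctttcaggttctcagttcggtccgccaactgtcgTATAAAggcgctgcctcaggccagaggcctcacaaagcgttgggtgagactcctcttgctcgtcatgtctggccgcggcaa

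The libraries held 43333966 to 48976810 counts each, and the 40 histone genes took 0.0256% ± 0.00314 (SD, n = 3) of them in libraries labelled SI and 0.0326% ± 0.0032 (SD, n = 3) in those labelled SINC. Counts of a histone gene in a library ran from 9 to 3299, and 25 of the 40 genes had a mean under 5 CPM (counts scaled to a common library size). U2AF2 stood at 285, 345 and 373 CPM in replicates 1 to 3 labelled SI and at 252, 284 and 205 CPM in those labelled SINC (exact permutation p = 0.1, 2-sided, the smallest that 3 against 3 can give; log2 fold change 0.44 ± 0.19 SE, edgeR adjusted p = 0.653). Its lower level was thus in the libraries labelled SINC. The sample descriptions tie the count columns with the letter N to libraries labelled SI and those with the letter S to libraries labelled SINC. Whether labels or columns were exchanged was not settled, and an exchange would turn every direction given here. Of 7 markers of ovarian carcinoma cells only KRT8 and KRT18 had a row, and KRT18 was at 289.8 ± 76.4 and 329 ± 72.3 CPM in libraries labelled SI and SINC (SD, n = 3 each). Fibroblast markers COL1A1 and COL1A2 summed to 2.74 to 4.32 CPM over the 6 libraries. Separate cultures are not stated for the 3 libraries of a label, so p-values reflect library-to-library spread that could be technical.

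Histone genes had lower values in libraries labelled SI than in those labelled SINC in 39 of 40 cases, with a median log2 fold change of -0.76, from -1.29 for H4C11 to 0.25 for H2BC17. Over all rows 45.7% lay below 0 and the median was 0.04. None of the 40 passed edgeR's quasi-likelihood test with Benjamini-Hochberg adjustment over all rows, where 0.00836% of rows passed, 1 row in all (HERC3, named after its values were seen). Adjusted p-values of the 40 genes ran from 0.653 to 0.903. An unadjusted p under 0.05 was reached by 17 of the 40, each lower in libraries labelled SI, against 4.22% of all rows in that direction, 3.15% in the other and 7.37% in either. The groups did not overlap in 13 of the 40, again each lower in libraries labelled SI, against 5.68% of all rows in that direction and 7.36% in the other. The standard error of a single gene ran from 0.18 to 0.76 on the log2 scale. These counts are a description, since the genes share libraries and, in part, reads.

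**Figure D1:**
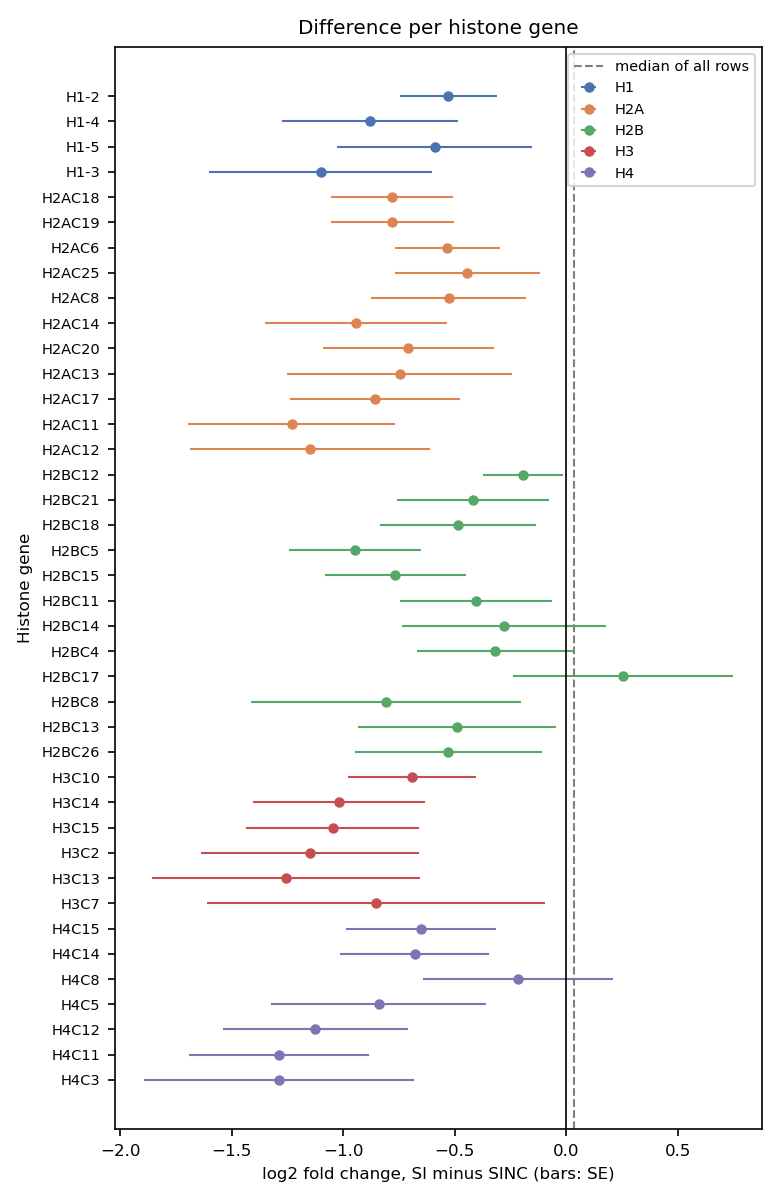
Log2 fold change of each of the 40 histone genes, libraries labelled SI minus libraries labelled SINC, with bars for the standard error, coloured by histone class. All points but H2BC17, at 0.25, lie left of 0, and the dashed line marks the median of all rows at 0.04.

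The difference was not even across libraries of a group. Replicate 2 labelled SI was the lowest of the 6 libraries for 33 of the 40 genes, where it was the lowest for 12.4% of all rows. The highest library was replicate 1 or replicate 2 labelled SINC for 19 genes each. As log2 deviations from the 6-library mean, the medians of the 40 genes were -0.28, -0.98 and 0.13 in replicates 1 to 3 labelled SI and 0.61, 0.58 and -0.0077 in those labelled SINC. Replicate 3 of both labels thus lay close to the mean, with 15 genes below it in the library labelled SI and 21 in the one labelled SINC. Without replicate 2 labelled SI the median log2 fold change was -0.50, with 37 of 40 genes below 0 and 4 lower at an unadjusted p under 0.05 in place of 17, against 3.50% of all rows. Without replicate 1 labelled SINC these were -0.55, 38 and 6, against 2.16% of all rows. Without replicate 2 labelled SINC they were -0.69, 39 and 5, against 2.01% of all rows. Without replicate 3 labelled SI the median was -0.93 and all 40 genes lay below 0.

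**Figure D2:**
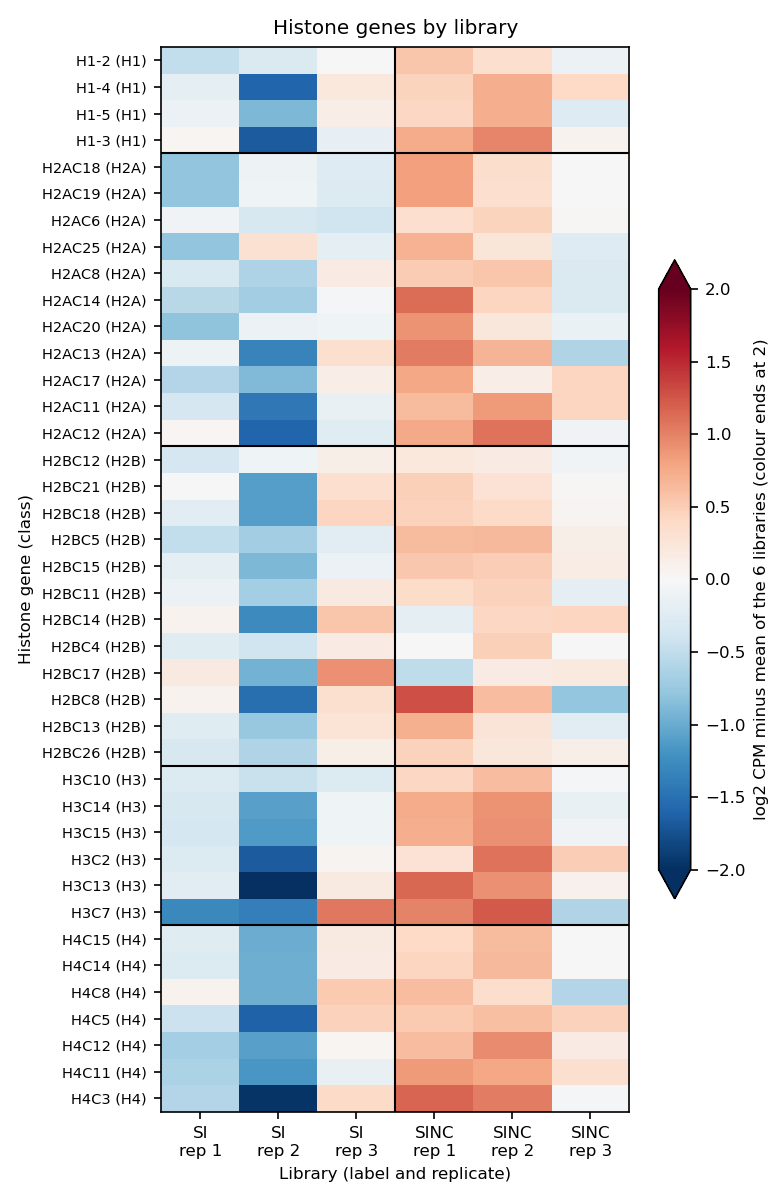
Deviation of each histone gene from its mean over the 6 libraries (log2 CPM, colour), with genes in rows by class and libraries in columns. Replicate 2 labelled SI is lowest for 33 of 40 genes, and replicates 1 and 2 labelled SINC hold the highest value of 19 genes each.

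H1 genes encode linker histones, which bind the DNA between nucleosomes. Summed over the 4 genes, the level was 41.4, 40.5 and 56.6 CPM in replicates 1 to 3 labelled SI and 80.9, 74.7 and 53.5 CPM in those labelled SINC, so that the groups overlapped in replicate 3. The means were 46.2 ± 9.05 and 69.7 ± 14.4 CPM (SD, n = 3 each). H1-2, the gene with the most H1 counts, was at 32.3, 36.9 and 45.6 CPM in libraries labelled SI and at 66.7, 57.5 and 41.6 CPM in those labelled SINC. Its groups overlapped as well, and its log2 fold change was -0.53 ± 0.22 (SE, edgeR adjusted p = 0.653), or 0.050 after the length and GC trend was subtracted. H1-4 did not overlap, at 5.68, 2.14 and 7.49 CPM against 8.85, 10.7 and 8.59 CPM (log2 fold change -0.88 ± 0.40 SE). H1-3, which did not overlap either, and H1-5 had log2 fold changes of -1.10 and -0.59. Replicate 2 labelled SI was the lowest library for H1-3, H1-4 and H1-5 but not for H1-2, which was lowest in replicate 1 labelled SI.

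H2A forms a dimer with H2B in the nucleosome. All 11 H2A genes lay below 0, with a median log2 fold change of -0.78, and 6 had an unadjusted p under 0.05, against 4.22% of all rows lower in libraries labelled SI. Their sums were 48.8, 61.6 and 63.0 CPM in libraries labelled SI and 119, 93.4 and 68.0 CPM in those labelled SINC, and did not overlap (57.8 ± 7.84 against 93.3 ± 25.3 CPM, SD, n = 3 each). H2AC18, with the most counts among them, was at 8.42, 13.5 and 12.2 CPM against 25.8, 18.6 and 14.5 CPM. Its log2 fold change was -0.78 ± 0.27 (SE, edgeR adjusted p = 0.653). H2AC19 has the same coding sequence as H2AC18 and had nearly the same counts (429, 671 and 508 against 433, 671 and 521 in libraries labelled SI), so the pair carries 1 measurement whose split between copies is uncertain.

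Some H2A genes departed from the pattern in replicate 2 labelled SI. H2AC25, of the small cluster on chromosome 1, was at 6.40, 13.7 and 9.67 CPM in libraries labelled SI and at 17.98, 13.2 and 9.33 CPM in those labelled SINC. Its replicate 2 labelled SI was thus above replicates 2 and 3 labelled SINC, unlike the other 39 genes, which lay below their mean of 6 libraries in that library. H2AC18, H2AC19, H2AC20 and H2AC25 were lowest in replicate 1 labelled SI. H2AC6 was lowest in replicate 3 labelled SI, at 11.1, 9.27 and 8.80 CPM against 14.7, 15.8 and 11.8 CPM (log2 fold change -0.53 ± 0.23 SE), and did not overlap. H2AC11 had the lowest fold change of the class, at 0.953, 0.424 and 1.10 CPM against 1.91, 2.25 and 1.66 CPM (log2 fold change -1.23 ± 0.46 SE), on 21 to 91 counts a library.

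The 12 H2B genes had a median log2 fold change of -0.45, with 2 lower at an unadjusted p under 0.05, against 4.22% of all rows. The median was -0.19 without replicate 2 labelled SI and -0.74 without replicate 3 labelled SI. Their sums were 94.2, 86.8 and 127 CPM in libraries labelled SI and 139, 136 and 111 CPM in those labelled SINC, and overlapped (103 ± 21.5 against 128 ± 15.6 CPM, SD, n = 3 each). H2BC12 alone held 22.9% of the counts of all 40 genes, a share of counts and not a level per length. It was at 53.2, 62.9 and 72.5 CPM against 77.0, 75.3 and 63.5 CPM (log2 fold change -0.20 ± 0.18 SE, edgeR adjusted p = 0.795). Its fold change was -0.099 without replicate 1 labelled SI, -0.310 without replicate 3 labelled SI and -0.013 with library size alone, and it turned to 0.55 once a trend on length and GC was subtracted. H2BC5 had the lowest unadjusted p of the 40 genes, 0.00809 in edgeR, with an adjusted p of 0.653. It was at 3.93, 3.41 and 4.81 CPM against 8.64, 8.77 and 6.03 CPM, with every library labelled SI below every one labelled SINC (log2 fold change -0.95 ± 0.30 SE). H2BC17 was the only gene above 0, at 2.16, 0.969 and 3.62 CPM against 1.33, 2.12 and 2.19 CPM (log2 fold change 0.25 ± 0.49 SE, edgeR adjusted p = 0.901). Its highest library was replicate 3 and its lowest replicate 2, both labelled SI, and without replicate 3 labelled SI its fold change was -0.26.

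H3 and H4 form the tetramer at the core of the nucleosome. The 6 H3 genes had a median log2 fold change of -1.03, and their sums did not overlap, at 13.5, 8.78 and 16.4 CPM in libraries labelled SI and 26.4, 30.8 and 16.98 CPM in those labelled SINC (12.9 ± 3.85 against 24.7 ± 7.07 CPM, SD, n = 3 each). H3C10, with the most H3 counts, was at 4.82, 4.28 and 4.84 CPM against 7.80, 8.99 and 5.75 CPM. Its groups did not overlap, with a log2 fold change of -0.69 ± 0.29 (SE, edgeR adjusted p = 0.653). H3C14 and H3C15, whose coding sequences are identical, had log2 fold changes of -1.02 and -1.05, and H3C13, which differs from them at 12 of 411 coding bases, had -1.26 on as few as 9 counts in a library.

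The 7 H4 genes had a median log2 fold change of -0.84, with sums of 21.6, 12.1 and 31.2 CPM in libraries labelled SI and 38.7, 41.3 and 26.4 CPM in those labelled SINC, which overlapped (21.6 ± 9.52 against 35.5 ± 7.95 CPM, SD, n = 3 each). H4C11 was at 1.34, 0.909 and 1.88 CPM against 3.83, 3.63 and 2.62 CPM, without overlap. It had the lowest fold change of the 40 genes, -1.29 ± 0.40 (SE, edgeR adjusted p = 0.653), on 45 to 164 counts a library. H4C12, which has the same coding sequence as H4C11, had -1.13 and did not overlap either. H4C15 was at 5.72, 3.37 and 7.65 CPM against 8.94, 10.5 and 6.82 CPM and overlapped (log2 fold change -0.65 ± 0.34 SE), and H4C14, identical in coding sequence to it, had -0.68. H4C8 lay nearest to 0 in the class, at -0.22, and turned to 0.10 once a trend on length and GC was subtracted. Counting rows of identical coding sequence as 1 gene left 36 genes with a median of -0.73, 35 of them below 0. Of the 36 genes, 12 were lower at an unadjusted p under 0.05 in edgeR, in place of 17 of 40, against 4.27% of all rows.

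**Figure D3:**
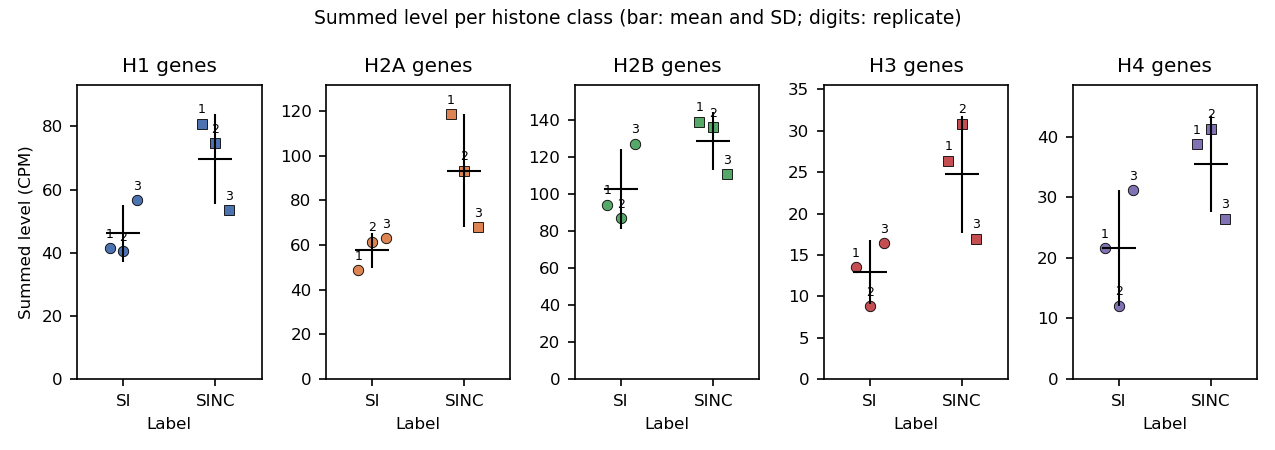
Level of each histone class summed over its genes (CPM) in the 3 libraries labelled SI and the 3 labelled SINC, with the replicate number at each point and bars for mean and SD. The H2A and H3 sums do not overlap between labels, while replicate 3 labelled SI reaches into the range of the libraries labelled SINC for H1, H2B and H4.

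Many H2A and H2B genes lie head to head and share the region between their starts, as in the H2AC17 promoter shown above. There were 9 such pairs among the 40 genes, with 230 to 248 nt between starts. In 7 of the 9 the H2A gene had the lower log2 fold change. The gap was widest for H2AC17 and H2BC17, at -0.86 and 0.25. H2AC12 and H2BC12 had -1.15 and -0.20, and H2AC11 and H2BC11 -1.23 and -0.40. The pairs in which the H2B gene was the lower were H2AC8 with H2BC8, at -0.53 and -0.81, and H2AC25 with H2BC26, at -0.44 and -0.53. The log2 ratio of the H2A to the H2B gene within a library separated the labels in 1 of 9 pairs, H2AC11 over H2BC11, at -1.97, -2.50 and -2.06 in libraries labelled SI and -1.47, -1.34 and -1.12 in those labelled SINC. For H2AC17 over H2BC17 the ratios were -0.11, 0.71 and -0.12 against 1.93, 0.63 and 0.90, and overlapped. These ratios were not tested.

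**Figure D4:**
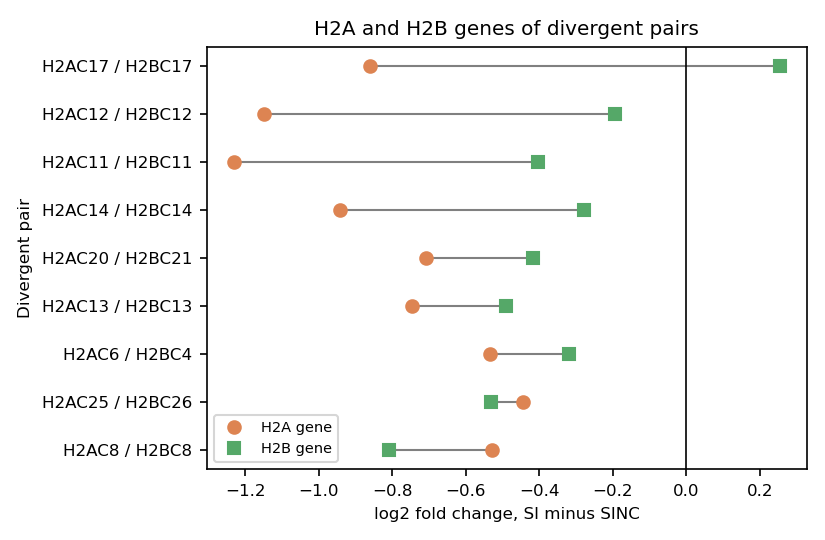
Log2 fold change (libraries labelled SI minus SINC) of the H2A gene and the H2B gene in each of 9 head-to-head pairs, joined by a line. The H2A gene lies to the left in 7 pairs, most widely for H2AC17 at -0.86 against H2BC17 at 0.25.

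The genes were also grouped by where their annotated transcripts end. The 16 genes with a transcript that runs 100 nt or more past the stem-loop had a median log2 fold change of -0.67, the 7 whose transcripts end sooner -0.78, and the 17 with no stem-loop in an annotated coding transcript -0.86. In replicate 2 labelled SI their median deviations were -0.99, -0.70 and -1.09. The 12 genes on chromosome 1 had a median of -0.69 and the 28 on chromosome 6 one of -0.79. The ends of the RNA in these cells were not measured.

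Histone transcripts are short, and other short transcripts also had values below 0 between these labels. The 40 genes had a median annotated length of 651 nt. Among the 1103 other rows in the shortest 10% by length (median 1096 nt) the median log2 fold change was -0.35 and 90.4% lay below 0. Their median deviations were -0.38, -0.10 and -0.05 in replicates 1 to 3 labelled SI and 0.32, 0.31 and -0.07 in those labelled SINC. A loess trend of each library's deviations on length, and then on GC, was subtracted library by library. The median log2 fold change of the histone genes was then -0.27 and 29 of 40 lay below 0, against 51.7% of all rows. An unadjusted p under 0.05 in edgeR was then reached by 907 of 11957 rows in either direction. Of the 40 genes 4 were lower at that threshold, against 4.17% of all rows, and 1 was higher. The deviations were then 0.20, -0.78 and 0.13 in libraries labelled SI and 0.26, 0.24 and 0.02 in those labelled SINC. With the trend removed and replicate 2 labelled SI left out, the median was -0.041 and 21 of 40 lay below 0, against 51.5% of all rows. What sets the length trend was not tested. Lengths are as annotated, and for 14 of the 40 genes the annotated transcript ends within 15 nt of the stop codon. The length of their RNA in these libraries is not known, so the trend subtracted from these genes may not be the right one. Class medians with the trend removed were -0.14 for H1, -0.13 for H2A, -0.24 for H2B, -0.44 for H3 and -0.36 for H4. All 6 H3 genes and 6 of 7 H4 genes still lay below 0, and the H2B sum turned to a log2 ratio of 0.19. The H3 median deviations were then 0.18, -1.33 and -0.013 in replicates 1 to 3 labelled SI. In those labelled SINC they were 0.40, 0.62 and 0.042. Those of H4 were 0.23, -0.90 and 0.14 against 0.22, 0.33 and 0.10, so replicate 2 labelled SI was the lowest library for both classes.

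**Figure D5:**
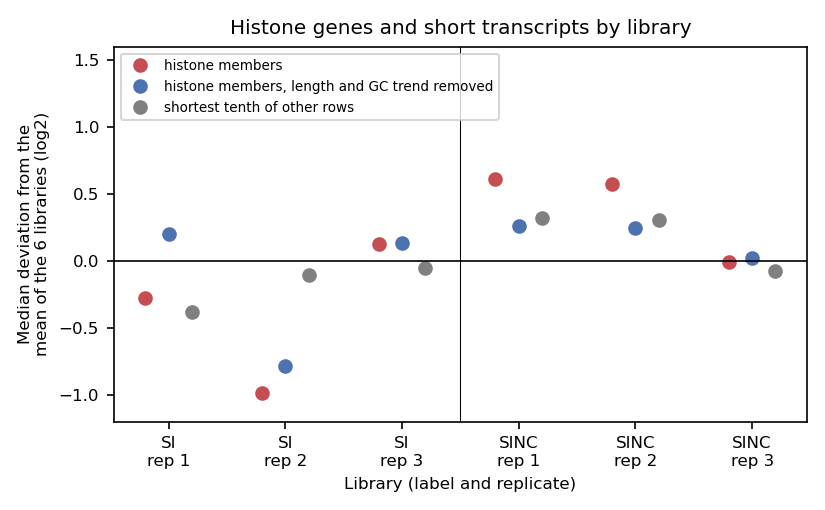
Median deviation from the mean of the 6 libraries (log2) for the 40 histone genes, for the same genes after subtraction of the length and GC trend, and for the shortest 10% of other rows. With the trend removed, replicate 2 labelled SI stands at -0.78 and the other 5 libraries between 0.02 and 0.26, whereas the short rows are lowest in replicate 1 labelled SI, at -0.38.

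Genes that process, replace, deposit or accompany these histones had list medians near 0. Of 32 genes for histone RNA processing and turnover, 15 lay below 0 (median 0.03), 0 passed over all rows, and 5 had an unadjusted p under 0.05, each lower in libraries labelled SI, against 4.22% of all rows. SLBP, the stem-loop binding protein, was at 122 ± 9.25 and 123 ± 15.3 CPM (SD, n = 3 each; log2 fold change -0.02 ± 0.17 SE, named for its role). The 3 genes of lowest p were LSM1, of the ring that starts decay of histone RNA, at -0.57 ± 0.19 (SE), and SNRPE and SNRPG, Sm proteins found in U7 as well as in spliceosomal particles, at -0.67 ± 0.23 and -0.83 ± 0.30 (SE). LSM1 was at 58.7, 61.0 and 61.1 CPM against 90.8, 108 and 68.7 CPM, without overlap. With library size alone, a scaling that moved the median of all rows from 0.04 to 0.22, the list median was 0.21, and that of the 40 histone genes -0.55 with 39 still below 0. Under that scaling 4 of the 40 were lower at an unadjusted p under 0.05 in edgeR, in place of 17, against 1.68% of all rows.

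Of 26 listed replication-independent histone genes 11 had a row, 8 of them below 0 (median -0.04, or 0.14 with library size alone), and none had an unadjusted p under 0.05. H2AZ1, which encodes the variant H2A.Z, was at 573, 514 and 593 CPM against 723, 826 and 608 CPM, without overlap (log2 fold change -0.36 ± 0.18 SE, edgeR adjusted p = 0.687). H2AZ2 and H2AJ had -0.23 and -0.35. Among 28 histone chaperones 9 lay below 0 (median 0.13), and 1 had an unadjusted p under 0.05, higher in libraries labelled SI, against 3.15% of all rows. That was HIRA, which deposits H3.3, at 41.9 ± 4.58 against 31.1 ± 4.77 CPM (SD, n = 3 each; log2 fold change 0.43 ± 0.19 SE, edgeR adjusted p = 0.664). CHAF1A, a subunit of the assembly factor that follows the replication fork, had 0.43, and SUPT6H 0.35.

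Genes of DNA replication, which like the histone genes serve S phase, were measured for all 46 members of their list. Of these, 15 lay below 0, where 39 of 40 histone genes did, and the median was 0.07. None passed over all rows. An unadjusted p under 0.05 in edgeR was reached by 2 higher in libraries labelled SI and 1 lower, against 3.15% and 4.22% of all rows. The groups did not overlap in 7 that were higher and 1 that was lower, against 7.36% and 5.68% of all rows. UHRF1, a factor of maintenance methylation, was at 100.1, 99.5 and 99.0 CPM in libraries labelled SI and 64.4, 82.7 and 64.1 CPM in those labelled SINC (log2 fold change 0.50 ± 0.17 SE). MCM4, part of the helicase that opens the fork, had 0.46 ± 0.18 (SE), and RPA3, the small subunit of replication protein A, had -0.59 ± 0.22 (SE), each with an edgeR adjusted p of 0.653. In replicate 2 labelled SI, where the histone median deviation was -0.98, that of the replication genes was 0.0068.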

How the data were processed

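The table deposited by the authors holds whole-number counts per gene or assembled locus, which were treated as raw. Per the labels' protocols, poly(A) RNA was enriched and strand-specific libraries were made. Per the submitters' processing notes, CASAVA and StringTie were used. Aligner, build, annotation and counting mode: not given in the sources used here. Columns were tied to libraries by the sample descriptions, N to SI and S to SINC. The lowest row mean was 31 counts, and genes without a row were not analysed here. Libraries of a group differed by a chi-square of 56.0 to 170 per degree of freedom, so no column was a copy of another. This does not show whether the libraries came from separate cultures.

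The test was edgeR 4.0.16 under R 4.3.3 (TMM, filterByExpr, glmQLFit, glmQLFTest, Benjamini-Hochberg over all 11957 rows, threshold 0.05), after a check on simulated data. CPM are counts scaled by TMM-adjusted library size. Deviations are of log2 CPM with a prior count of 2. Lengths and GC content are of the longest coding transcript in GENCODE release 29 (94.8% of rows, 40 of 40 histone genes). The trend was a loess of the deviations on length, and then of its residuals on GC, with a span of 0.3. Rows without a length were left unadjusted. Named genes were U2AF2, the member of each class with the most CPM, the 2 members of lowest p, any member above 0, members of head-to-head pairs, and 3 genes of lowest p per list. Other genes are named to complete a class. Members and lists were chosen with earlier results of these data known. Alternatives used limma 3.58.1 (voom) and DESeq2 1.42.0.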

Additional observations from a re-analysis of the deposited data

How the results depend on the processing

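Over the omissions of 1 library the histone median ran from -0.93 to -0.50 and the genes lower at an unadjusted p under 0.05 from 4 to 21, while the share of all rows ran from 2.01% to 7.00%. Under the 15 listed alternatives 0 of the 40 genes passed over all rows, except that DESeq2 gave none of them an adjusted p. With DESeq2, 18 of the 40 were lower at an unadjusted p under 0.05, against 5.16% of all rows. By its adjusted p, DESeq2 called 61 rows in all. The count of all rows that passed was 0 with upper-quartile scaling, library size alone, a mean of at least 5 CPM or the trend removed. It was 2 with a replicate block, and 0 to 2 when 1 library was left out. Whether the numbers pair the libraries is not known, and the main fit did not pair them. Same-numbered libraries had correlations of deviations of -0.0895, 0.25 and -0.31, and 3 libraries a label are too few to settle it. The replicate block took rows at an unadjusted p under 0.05 from 881 to 548. With a mean of at least 5 CPM, the 15 genes left were all below 0 and none passed.

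With library size alone, list medians were 0.21 for histone RNA processing, 0.14 for replication-independent histones, 0.30 for chaperones and 0.26 for DNA replication. After subtraction of the length and GC trend, the histone median was -0.27 and the class medians were -0.14 for H1, -0.13 for H2A, -0.24 for H2B, -0.44 for H3 and -0.36 for H4. The summed log2 ratios were then -0.013 for H1, -0.14 for H2A and 0.19 for H2B. The fold change turned in 10 of the 40 genes, to 0.050 for H1-2, 0.041 for H1-5, 0.10 for H4C8, 0.55 for H2BC12, 0.056 for H2AC20, 0.032 for H2AC13, 0.14 for H2AC8, 0.19 for H2BC13, 0.35 for H2BC14 and 0.16 for H2BC4. List medians that turned were -0.034 for RNA processing and 0.073 for replication-independent histones. The cause was not tested, and the lengths were as annotated, which for 14 of the 40 genes stop within 15 nt of the stop codon. Chosen after the data were seen, subtracting the trend and leaving out replicate 2 labelled SI gave a median of -0.041 with 21 genes below 0.

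Over the omissions of 1 library, the H4 median ran from -1.47 to -0.44, the H3 median from -1.39 to -0.77, the H2B median from -0.74 to -0.19, the RNA processing median from -0.076 to 0.067 and the replication-independent median from -0.14 to 0.059. H2BC14 ran from -0.70 to 0.10 and H2BC17 from -0.26 to 0.63.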

Other observations

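Some histone genes outside the rule were highest in replicate 2 labelled SI, the library in which 33 of the 40 replication-dependent genes were lowest. Of the 11 replication-independent histone genes 4 were highest there, where 19.3% of all rows were, and 2 were lowest there, H2AZ1 and CENPA. The other 7 were highest in replicate 2 labelled SINC, where 14.5% of all rows were. The genes below were chosen after their values were seen. H1-10, which encodes a linker histone made outside S phase, was at 44.1, 117 and 64.3 CPM in replicates 1 to 3 labelled SI and at 71.9, 72.4 and 56.9 CPM in those labelled SINC, with a log2 fold change of 0.17 ± 0.30 (SE, edgeR adjusted p = 0.896). H2AX, the variant phosphorylated at DNA breaks, was at 65.8, 128 and 88.6 CPM against 106, 89.8 and 62.2 CPM (log2 fold change 0.13 ± 0.26 SE, edgeR adjusted p = 0.901). H2AJ was at 16.1, 48.3 and 25.5 CPM against 44.6, 43.5 and 26.5 CPM. For all 3 the lowest library labelled SI was replicate 1, as it was for H1-2, H2AC18, H2AC19, H2AC20, H2AC25 and H2BC12 among the 40 genes. H3-3A and H3-3B, which encode H3.3, lay between 185 and 240.4 CPM and between 429 and 495 CPM over the 6 libraries.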
